A study of Homo sapiens with 8 samples.

Results

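The genes of the RUNX family, RUNX1, RUNX2 and RUNX3, and CBFB, the gene of their shared partner subunit, were examined in 8 ATAC-seq peak lists from LX-2, a human cell line that was immortalised from hepatic stellate cells. ATAC-seq marks accessible chromatin by cutting it with a transposase, and a peak is a stretch where the fragments pile up over their surroundings. Members were the peaks that touched the span of a gene's coding transcripts in the hg19 annotation or the 50 kb on either side of it. The 4 windows held 339 of the 466883 peaks in the 8 lists. Merged over libraries, they gave 70 regions, of which 59 had a peak in at least 2 libraries, out of 75501 such sites in the genome. Of the 59 sites, 29 lay in the RUNX1 window, 11 in that of RUNX2, 7 in that of RUNX3 and 12 in that of CBFB, and the other 11 regions each had a peak in 1 library.

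RUNX1, RUNX2 and RUNX3 are transcription factors that bind DNA through a Runt domain, and CBFβ, the product of CBFB, does not bind DNA itself but raises the affinity of each RUNX protein for its site. Each RUNX gene is read from a distal promoter, P1, and a proximal promoter, P2, which give proteins with different N-termini. RUNX1 is best known for blood formation, RUNX2 for bone formation and RUNX3 for T cells and sensory neurons, and hepatic stellate cells are the mesenchymal cells of the liver that turn into matrix-producing myofibroblasts on activation.

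The cells had been grown on fibronectin-coated polyacrylamide gels of about 2 kPa (soft matrix) or 40 kPa (stiff matrix) for 2 or 4 days, so that D2 soft and D4 soft stood against D2 stiff and D4 stiff, with 2 biological replicates each. Every group was the same line, so the replicates carried no variation between donors. Replicates are numbered here as in the sample titles, and the peak names inside 5 of the 8 lists carry another number. The lists held between 29789 and 72840 peaks. D2 soft replicate 1 stood apart with 29789 peaks, against 55754 in the next shortest list, and its background of 0.78 fragments per kb, recovered from the peak values, lay below the 2.08 to 3.15 of the other 7 libraries. A gene missing from a list had no peak past the caller's threshold in that library, which does not show closed chromatin. As a check of the cell type, promoter peaks were found in all 8 lists at PDGFRB, COL1A1 and ACTA2 and in 6 lists, the 4 stiff ones and 2 soft ones, at HAND2 and COL1A2, whereas LRAT and DES, markers of the quiescent stellate cell and of muscle-like filaments, had none. Of the markers of other liver cells, PTPRC, SPI1 and CD3E of leukocytes, ALB and APOA1 of hepatocytes and CDH5 of endothelium had no promoter peak in any list, and TTR of hepatocytes had one in 2 lists.

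The sequences just before the promoters are shown because the promoters differed in whether a peak was called. Each line gives 200 bases of hg19, 5′ to 3′ on the coding strand of the gene, and capitals mark the letters TGTGGT (RUNX), TGAGTCA or TGACTCA (AP-1), GGAATG (TEAD) and GGGCGG (GC box) or their reverse complements. The RUNX1 P1 (chr21:36421642-36421841), RUNX1 P2 (chr21:36260988-36261187) and RUNX3 P2 (chr1:25256768-25256967) stretches end at the base before the first annotated start. Those of RUNX2 P1 (chr6:45295694-45295893), RUNX3 P1 (chr1:25291613-25291812) and the CBFB promoter (chr16:67062687-67062886) end 160, 111 and 165 bases earlier, to keep clear of exons of other annotated transcripts. For the same reason that of RUNX2 P2 (chr6:45388616-45388815) ends 1406 bases before the start.
RUNX1 P1: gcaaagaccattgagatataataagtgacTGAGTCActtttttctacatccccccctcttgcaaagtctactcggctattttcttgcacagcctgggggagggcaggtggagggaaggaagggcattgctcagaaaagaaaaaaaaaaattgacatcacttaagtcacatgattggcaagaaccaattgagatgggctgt
RUNX1 P2: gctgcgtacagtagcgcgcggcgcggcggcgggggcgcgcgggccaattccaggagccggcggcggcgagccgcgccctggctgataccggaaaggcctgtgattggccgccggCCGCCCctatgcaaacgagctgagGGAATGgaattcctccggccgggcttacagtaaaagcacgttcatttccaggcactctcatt
RUNX2 P1: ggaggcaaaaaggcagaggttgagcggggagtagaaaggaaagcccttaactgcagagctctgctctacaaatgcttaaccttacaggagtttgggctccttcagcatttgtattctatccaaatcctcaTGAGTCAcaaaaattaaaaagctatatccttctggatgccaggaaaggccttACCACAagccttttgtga
RUNX2 P2: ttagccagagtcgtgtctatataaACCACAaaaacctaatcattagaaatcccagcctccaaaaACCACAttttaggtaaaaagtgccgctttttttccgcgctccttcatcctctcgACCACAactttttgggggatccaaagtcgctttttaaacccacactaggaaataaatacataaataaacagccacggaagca
RUNX3 P1: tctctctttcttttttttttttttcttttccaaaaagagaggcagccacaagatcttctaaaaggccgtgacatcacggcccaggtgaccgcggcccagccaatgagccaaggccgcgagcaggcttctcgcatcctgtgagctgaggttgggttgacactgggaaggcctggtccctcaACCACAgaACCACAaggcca
RUNX3 P2: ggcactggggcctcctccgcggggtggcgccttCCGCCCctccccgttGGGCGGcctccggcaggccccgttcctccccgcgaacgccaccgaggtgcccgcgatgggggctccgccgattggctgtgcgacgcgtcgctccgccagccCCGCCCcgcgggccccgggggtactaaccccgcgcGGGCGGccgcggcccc
CBFB promoter: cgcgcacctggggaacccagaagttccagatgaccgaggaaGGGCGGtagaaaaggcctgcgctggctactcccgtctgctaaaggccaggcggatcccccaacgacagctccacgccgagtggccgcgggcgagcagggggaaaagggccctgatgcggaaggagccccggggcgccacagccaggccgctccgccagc
The stretch before RUNX2 P2, the farthest from its start, held 3 copies of the RUNX letters, RUNX3 P1 held 2 copies 2 bases apart and RUNX2 P1 held 1, while the stretches before RUNX1 P1, RUNX1 P2, RUNX3 P2 and CBFB held none. Among 23414 clusters of coding transcript starts, 8.04% had these letters in the 200 bases directly before the start. AP-1 letters stood before RUNX1 P1 and RUNX2 P1, against 2.84% of all starts, and the TEAD letters stood before RUNX1 P2, against 8.499% of all starts. RUNX3 P2 held 4 GC boxes, RUNX1 P2 and CBFB 1 each, and 47.4% of all starts had at least 1. These matches describe letters, not bound sites.

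Within 1 kb of its starts, RUNX1 had peaks at both promoters, RUNX2 at P2 alone, RUNX3 at neither, and CBFB at its promoter. This is shown in the plot of promoter peaks by library. For comparison, 37.6% of the 23414 coding starts had no peak in any list and 37.7% had one in all 8. By fold enrichment all 4 promoters with peaks were weak among promoters: their best peak stood at a median percentile of 13.9 (RUNX1 P1), 22.0 (RUNX1 P2), 16.1 (RUNX2 P2) and 16.7 (CBFB) among the coding promoters with a peak in the same library.

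**Figure D1:**
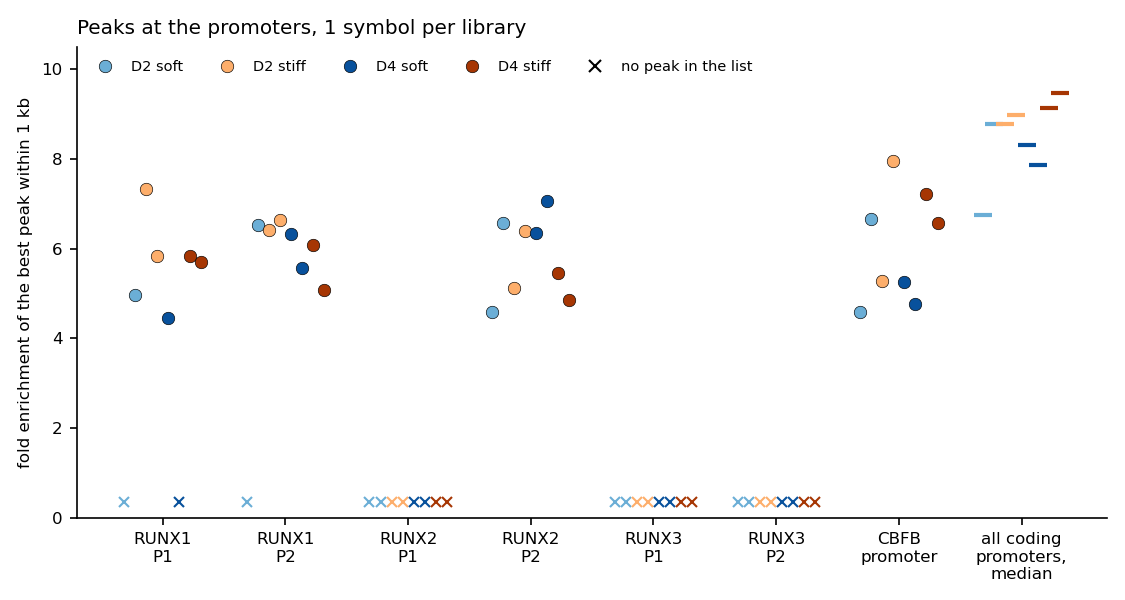
Fold enrichment (vertical axis, linear) of the best peak within 1 kb of each promoter, with 1 symbol per library coloured by group and crosses at the foot for libraries with no peak. Circles are single libraries and the short bars at the right give the median over all coding promoters with a peak in each library. RUNX2 P1 and both RUNX3 promoters show crosses in all 8 libraries, and most circles lie below the bars, which run from 6.76 to 9.47.

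RUNX1 P1 starts at chr21:36421641 on the reverse strand, 160.654 kb upstream of P2, and drives the longer isoform that is prominent in blood stem cells. A peak lay within 1 kb of it in 6 libraries. Its fold enrichment, the fragment pile-up at the summit over the local background of the same library, was 4.97 for D2 soft replicate 2, 7.32 and 5.84 for D2 stiff, 4.44 for D4 soft replicate 1 and 5.83 and 5.70 for D4 stiff. D2 soft replicate 1 and D4 soft replicate 2 had none. Such values are set side by side between libraries as a description, and the tests use ranks within a list. Thus all 4 stiff libraries and 2 of 4 soft libraries had a P1 peak, and where present the stiff values lay above the soft ones. The share of all promoters with this order was not counted. By fold enrichment these peaks lay in the lower part of their lists, at percentiles from 13.2 to 49.2. By −log10 p they ranked higher, at percentiles from 32.4 to 69.15. A wider merged site (chr21:36419232-36422007) that takes in P1 and an intronic summit 1.80 kb inside the gene had a peak in all 8 libraries. There the soft and stiff libraries overlapped. Among the sites with a peak in all 8 lists, its percentile of fold enrichment ran from 4.11 to 28.4 on the soft matrix and from 3.12 to 20.1 on the stiff matrix.

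RUNX1 P2, at chr21:36260987, had a peak in 7 libraries and none in D2 soft replicate 1. The fold enrichment was 6.52 for D2 soft replicate 2, 6.42 and 6.63 for D2 stiff, 6.32 and 5.58 for D4 soft and 6.08 and 5.08 for D4 stiff. The soft and stiff values overlapped. By −log10 p the best P2 peaks stood at percentiles from 46.3 to 73.1 of their lists. A second site inside the P2 zone (chr21:36261906-36262585) had a peak in 5 libraries, from 3.42 to 5.08. In the within-list percentile of fold enrichment, with a missing peak set to 0, P2 exceeded P1 by 9.01 ± 15.9 points (SD, n = 8), P2 being higher in 5 libraries and P1 in 2 (exact paired permutation test of sign changes, two-sided, p = 0.172).

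RUNX2 P1, at chr6:45296054, had no peak within 1 kb in any of the 8 lists, whereas P2, 94.168 kb downstream at chr6:45390222, had one in each. At P2 the fold enrichment was 4.58 and 6.57 for D2 soft, 5.12 and 6.39 for D2 stiff, 6.34 and 7.07 for D4 soft and 5.46 and 4.86 for D4 stiff. The D4 soft values lay above the D4 stiff values, and the day 2 groups overlapped. How many of all promoters had that day 4 order was not counted. With P1 set to 0 for lack of a peak, P2 stood 30.1 ± 13.0 percentile points (SD, n = 8) above it, which restates that P2 had a peak in 8 of 8 libraries and P1 in none, so no test is given. In lists reduced to the 29789 peaks of lowest p-value, a P2 peak was left only in D2 soft replicate 1 (rank 24567 by p-value) and D4 soft replicate 2 (rank 23385). The RUNX2 difference was then 4.14 points, and the RUNX1 difference was 0.923 points. RUNX3 P1 (chr1:25291501) and P2 (chr1:25256767, 34.734 kb downstream) had no peak within 1 kb in any list, so they could not be compared. The peak nearest to P2 (chr1:25255320-25255574) lay just outside that 1 kb and within 1 kb of another annotated RUNX3 start. Its summit was 36.17 kb from P1, and it was called in D4 stiff replicate 2 alone, with fold enrichment 4.36.

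The CBFB promoter, at chr16:67063052, had peaks on both sides of the start, at 2 adjacent sites (chr16:67062495-67063151 and chr16:67063239-67064028) with a peak in 7 libraries each and at least 1 of them in every library. In lists reduced to the 29789 peaks of lowest p-value, a promoter peak was left in D2 soft replicate 1 alone (rank 24746 by p-value). The best fold enrichment was 4.60 and 6.65 for D2 soft, 5.28 and 7.95 for D2 stiff, 5.26 and 4.77 for D4 soft and 7.23 and 6.58 for D4 stiff. The D4 stiff values lay above the D4 soft values and the day 2 groups overlapped. With 2 libraries a group, this order and that at RUNX2 P2 are descriptions only. The share of all promoters with either order was not counted.

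Beyond the promoters, the members were mostly intronic or distal. Of the 59 sites, 34 lay in introns of their gene, 1 in an exon and 24 in the flanks, and 6 overlapped a promoter zone. The RUNX1 window was dense, with 8.02 sites per 100 kb, above 90.6% of the 19165 coding gene windows drawn the same way. CBFB had 6.98 (above 84.1%), RUNX3 4.23 (above 53.3%) and RUNX2 3.41 sites per 100 kb (above 40.6%), against a median of 3.96. The map of the 4 windows shows this spread.

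**Figure D2:**
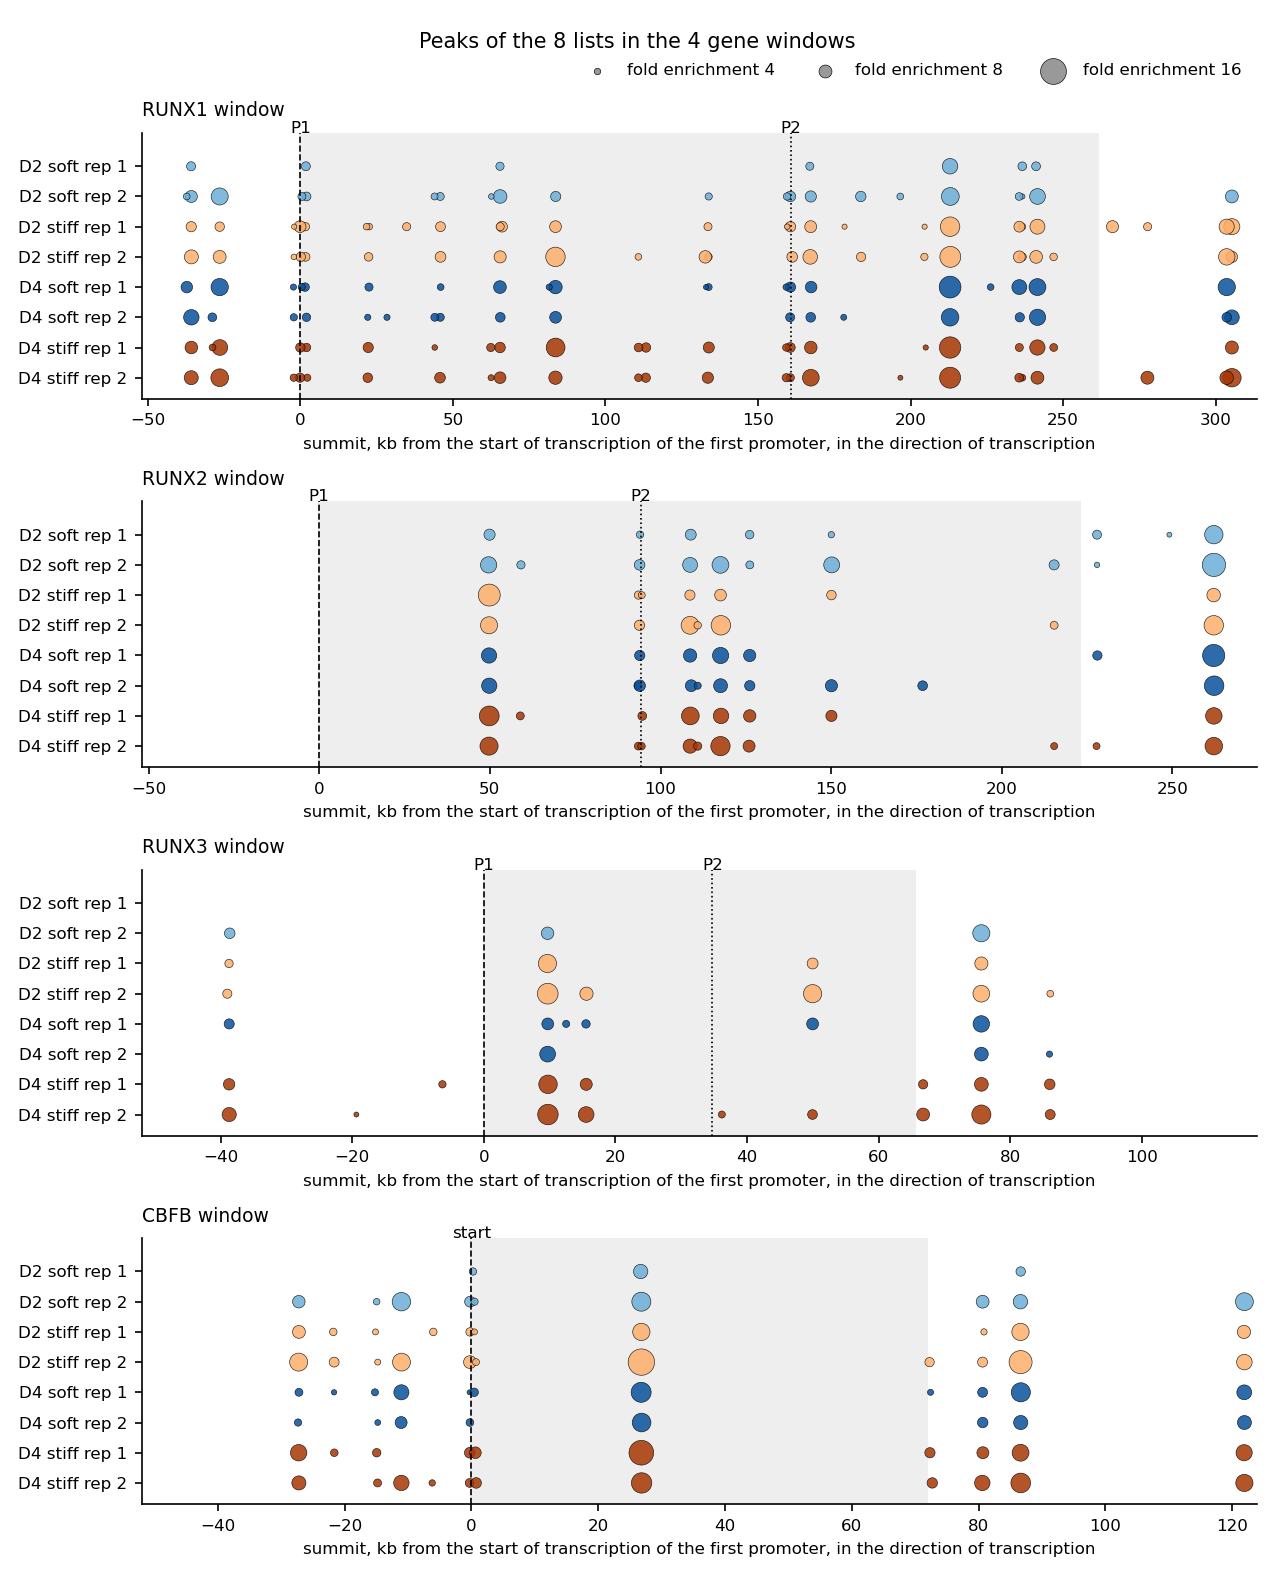
Peaks of each library (rows, coloured by group) in the 4 windows, placed by the distance of the summit in kb from the most upstream start, in the direction of transcription. The area of a circle grows with fold enrichment, grey marks the span of the coding transcripts, and lines mark the promoters. RUNX3 has no circle within 1 kb of either promoter line and none at all in D2 soft replicate 1, and RUNX2 has none at P1.

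Sequences of 201 bases centred on the best summit are shown for the sites that carry the results below. They are the highest ranked site in the RUNX1 and CBFB windows, the highest ranked one of RUNX2, an intronic RUNX2 site seen on day 2 on the soft matrix alone, and the highest ranked site of RUNX3. They lie at chr21:36208591-36208791, chr6:45422073-45422273, chr6:45558070-45558270, chr1:25281693-25281893 and chr16:67089754-67089954 of hg19, on the strand of the gene, and the distance is that from the first start. The RUNX1 summit overlaps an exon of an unnamed long non-coding RNA on the other strand, and the others overlap no annotated exon.
RUNX1 intron site, 212.9 kb: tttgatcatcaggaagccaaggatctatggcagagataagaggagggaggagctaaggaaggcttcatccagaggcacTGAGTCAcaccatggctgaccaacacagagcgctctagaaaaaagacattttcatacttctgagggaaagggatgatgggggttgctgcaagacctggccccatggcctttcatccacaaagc
RUNX2 intron site, 126.1 kb: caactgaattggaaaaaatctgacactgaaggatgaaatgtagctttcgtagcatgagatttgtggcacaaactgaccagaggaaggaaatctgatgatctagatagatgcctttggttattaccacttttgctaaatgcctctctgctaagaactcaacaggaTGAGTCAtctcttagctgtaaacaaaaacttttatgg
RUNX2 downstream site, 262.1 kb: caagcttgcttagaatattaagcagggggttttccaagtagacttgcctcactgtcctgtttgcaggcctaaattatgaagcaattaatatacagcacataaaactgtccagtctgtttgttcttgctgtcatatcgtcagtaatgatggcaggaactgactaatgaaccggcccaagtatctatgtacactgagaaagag
RUNX3 intron site, 9.71 kb: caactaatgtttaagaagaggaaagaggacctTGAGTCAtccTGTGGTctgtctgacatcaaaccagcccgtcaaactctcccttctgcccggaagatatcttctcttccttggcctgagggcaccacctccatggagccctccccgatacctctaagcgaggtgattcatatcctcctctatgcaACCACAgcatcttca
CBFB intron site, 26.8 kb: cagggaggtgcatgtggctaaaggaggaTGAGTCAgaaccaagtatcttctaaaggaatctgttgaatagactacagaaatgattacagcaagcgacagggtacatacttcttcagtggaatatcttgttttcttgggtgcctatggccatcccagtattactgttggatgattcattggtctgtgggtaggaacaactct
The RUNX3 site held 2 RUNX matches and an AP-1 match, the RUNX1 and CBFB sites and the RUNX2 site at 126.1 kb held 1 AP-1 match each, and the RUNX2 site at 262.1 kb held none of the 4 motifs. In the same window around the summit, the RUNX letters occurred at 10 of the 59 member sites, against 16.7% of all 75501 sites, and the AP-1 letters at 18 of 59, against 29.4%. By gene, AP-1 letters were at 8 of 29 sites of RUNX1, 3 of 11 of RUNX2, 4 of 7 of RUNX3 and 3 of 12 of CBFB. TEAD letters were at 10 of 59 sites, against 18.8% of all sites, with 2 of 29 in RUNX1, 5 of 11 in RUNX2, 2 of 7 in RUNX3 and 1 of 12 in CBFB. These counts are small and were not tested.

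The intronic RUNX1 site 212.9 kb from P1 (chr21:36208434-36209250) had a peak in all 8 lists, with fold enrichment 9.61 and 11.03 for D2 soft, 12.1 and 12.9 for D2 stiff, 13.5 and 10.9 for D4 soft and 13.2 and 13.0 for D4 stiff. These values were close to each other and stood at a median percentile of 90.0 of their lists, far above the 2 RUNX1 promoters. The next best RUNX1 site in all 8 lists (chr21:36179769-36181109, 241.6 kb) had fold enrichment from 5.475 to 10.49. The CBFB intron site 26.8 kb from the start (chr16:67089458-67090246) had fold enrichment 8.89 and 11.8 for D2 soft, 10.7 and 16.3 for D2 stiff, 12.4 and 11.6 for D4 soft and 15.3 and 12.6 for D4 stiff. Its soft and stiff values overlapped. The other CBFB-window site in all 8 lists (chr16:67148928-67149871) lies within the neighbouring gene PHAF1, and sites at the starts of CES4A, PHAF1 and B3GNT9 were also among the 12 of this window.

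RUNX2 had a strong site 262.1 kb from P1 (chr6:45557952-45558691), downstream of its coding transcripts but within its longest annotated transcript. The fold enrichment was 11.4 and 14.4 for D2 soft, 8.41 and 12.05 for D2 stiff, 13.7 and 12.1 for D4 soft and 10.2 and 10.9 for D4 stiff. On day 4 both soft values exceeded both stiff values, and on day 2 they overlapped. How many of all sites had that day 4 order was not counted. The second RUNX2-window site in all 8 lists, at 49.8 kb (chr6:45344911-45346237), covers the start of SUPT3H, a gene of a histone acetyltransferase complex that runs the other way, and had fold enrichment from 6.91 to 13.6.

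RUNX3 had no site in all 8 lists. Its highest ranked site, in the intron 9.71 kb from P1 (chr1:25281590-25282315), was in 7 libraries, with fold enrichment 7.73 for D2 soft replicate 2, 11.3 and 12.8 for D2 stiff, 7.33 and 9.79 for D4 soft and 11.5 and 12.7 for D4 stiff. All 4 stiff values exceeded all 3 soft values. How many of all sites split in this way was not counted, so this order is a description only. The next, at 75.6 kb (chr1:25215653-25216294), was 10.6 for D2 soft replicate 2, 8.14 and 10.4 for D2 stiff, 10.2 and 8.53 for D4 soft and 8.54 and 11.9 for D4 stiff, and overlapped between matrices. D2 soft replicate 1 had no peak in the RUNX3 window.

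To ask whether the matrix changed how much of the accessible landscape fell in these windows, peaks in the windows were counted per 10000 peaks of the list. Over the 4 genes the value was 6.04 and 7.71 for D2 soft, 7.93 and 7.38 for D2 stiff, 6.95 and 6.92 for D4 soft and 7.13 and 7.41 for D4 stiff. The mean was 6.91 ± 0.683 on the soft matrix and 7.46 ± 0.335 on the stiff matrix (SD, n = 4 each), and the difference of 0.556 did not pass an exact two-sided permutation test (p = 0.229 over 70 arrangements, and p = 0.222 when labels were exchanged within days). Without D2 soft replicate 1 the difference was 0.268 (exact p = 0.429), and without D2 soft replicate 2 it was 0.825 (p = 0.0286, the smallest that 3 against 4 allows). With lists of equal length the difference was 0 (exact p = 1), with 10 kb flanks 0.356 (exact p = 0.229) and with the whole gene record as window 0.1455 (exact p = 0.886). In absolute numbers the stiff lists held 12.75 more peaks on average (exact p = 0.0286) and were also the longer lists on each day on average.

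**Figure D3:**
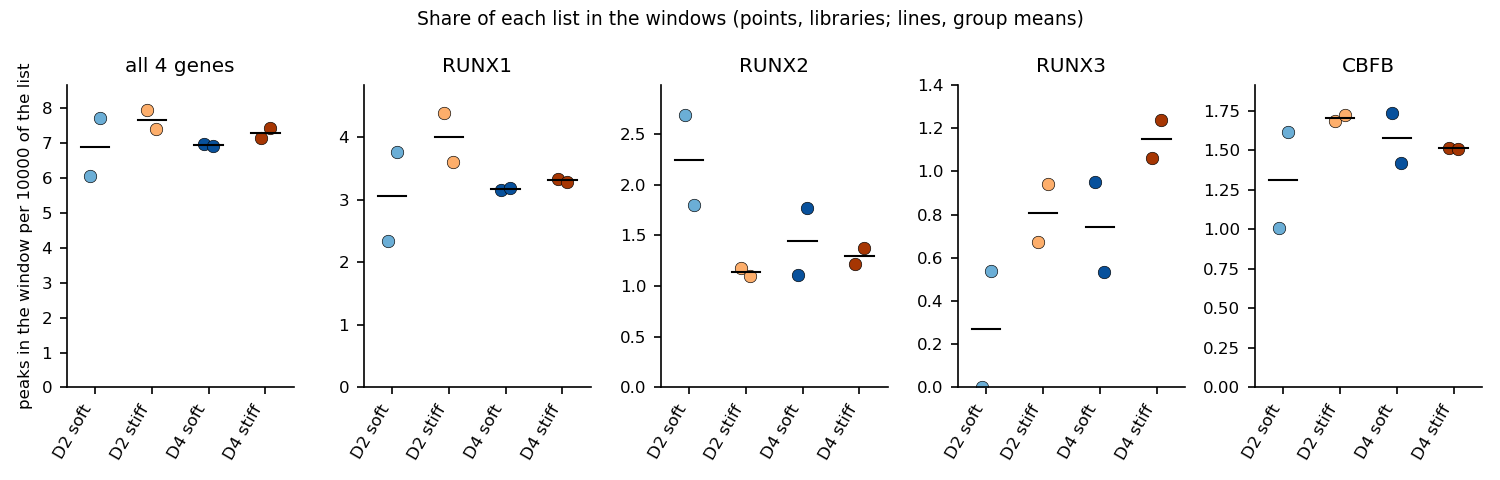
Peaks in the windows per 10000 peaks of the list (vertical axes, linear from 0, scale differing by panel), with points for libraries and lines for group means, n = 2 per group. RUNX2 points are higher for D2 soft than D2 stiff, RUNX3 points are higher for D4 stiff than D4 soft, and the 4 soft and 4 stiff libraries overlap in every panel.

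By gene, RUNX3 took 0.505 ± 0.389 peaks per 10000 on the soft matrix and 0.979 ± 0.236 on the stiff matrix (exact p = 0.0857, and p = 0.0556 within days, the smallest that exchange within days allows). Its library values were 0 and 0.538 for D2 soft, 0.675 and 0.942 for D2 stiff, 0.948 and 0.532 for D4 soft and 1.06 and 1.24 for D4 stiff, so that the stiff values were higher on each day. RUNX2 went the other way, with 1.84 ± 0.648 on the soft matrix and 1.22 ± 0.115 on the stiff matrix (exact p = 0.114). It was 2.69 and 1.79 for D2 soft, 1.18 and 1.10 for D2 stiff, 1.11 and 1.77 for D4 soft and 1.21 and 1.37 for D4 stiff. Without D4 soft replicate 1 the RUNX2 difference was -0.868 (exact p = 0.0286), and without D2 soft replicate 1 it was -0.341 (p = 0.229). The RUNX3 difference of 0.474 was 0.306 without D2 soft replicate 1 (exact p = 0.171). RUNX1 (3.12 ± 0.583 and 3.66 ± 0.506) and CBFB (1.445 ± 0.32 and 1.61 ± 0.113) also overlapped (exact p = 0.257 and 0.457). Without D2 soft replicate 1 their differences were 0.284 and 0.0197, against 0.54 and 0.166 with it. With lists of equal length the differences were 0.168 for RUNX1, -0.755 for RUNX2, 0.252 for RUNX3 and 0.336 for CBFB. With all 8 libraries none of the values per 10000 peaks passed at 0.05, and adjusted over the total and the 4 genes the lowest p was 0.286 (exact permutation tests).

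Sites with a peak in both libraries of one group and in neither of the other were then counted. On day 2, 6 of the 59 sites were present in D2 stiff alone, 4 of RUNX1 and 1 each of RUNX3 and CBFB, against 7.45% of all 75501 sites. Present in D2 soft alone were 2 sites, both of RUNX2, against 0.391% of all sites. On day 4, 4 sites were in D4 stiff alone, 3 of RUNX1 and 1 of RUNX3, against 6.72%, and 0 were in D4 soft alone, against 1.31%. No site was in all 4 stiff and no soft libraries, against 0.85%, nor in all 4 soft and no stiff libraries, against 0.0172%. Leaving out 1 library moved these counts and the share of all sites together. The D2 stiff count was 21 of 55 without D2 soft replicate 2 (29.7% of all sites), 12 of 56 without D2 stiff replicate 1 (14.9%) and 6 of 59 without D2 soft replicate 1, the shortest list (8.54%). The D2 soft count was 7 of 59 without D2 soft replicate 1 (4.7% of all sites). With lists of equal length it was 2 of 25 on either matrix (4.05% of all sites for D2 stiff and 3.26% for D2 soft), and at q up to 0.01 the D2 soft count was 1 of 56 (0.325%). It was 0 of 49 when a peak had to cover at least 0.5 of its merged site (1.09%). The D4 stiff count was 11 of 58 without D4 soft replicate 1 (15.6% of all sites) and 7 of 57 without D4 soft replicate 2 (11%). The D4 soft count was 4 of 54 without D4 stiff replicate 2 (3.83%), and 1 without D4 soft replicate 1 (2.03%) or 2 (2.82%).

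The RUNX2 site at 126.1 kb (chr6:45421816-45422513) had fold enrichment 5.27 and 4.92 for D2 soft, no peak in either D2 stiff library, 7.60 and 6.39 for D4 soft and 7.69 and 7.43 for D4 stiff. It was thus called on the soft matrix on both days and on the stiff matrix on day 4 alone. The second, at 227.9 kb (chr6:45523608-45524152), was 5.58 and 3.35 for D2 soft, absent from D2 stiff, 5.78 for D4 soft replicate 1 and 4.34 for D4 stiff replicate 2. Both were in D2 soft replicate 1, the library with the fewest peaks.

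Of the RUNX1 sites in D2 stiff alone, the best ranked were at 303.6 kb (chr21:36117907-36118326), which overlaps the start of LINC01426, with 9.40 and 10.2 for D2 stiff, and at 22.25 kb (chr21:36398983-36400282), with 4.08 and 5.31. Both also had peaks in both D4 soft libraries. In D4 stiff alone, RUNX1 had sites at 113.3 kb (chr21:36307965-36308482), with 5.84 and 5.76, and at 110.8 kb (chr21:36310582-36311050), with 5.36 and 4.77 and also 4.12 for D2 stiff replicate 2. The RUNX3 site in D2 stiff alone, at 49.96 kb (chr1:25241226-25241784), had 6.76 and 11.3 there, 7.35 for D4 soft replicate 1 and 6.05 for D4 stiff replicate 2. The RUNX3 site in D4 stiff alone, at 66.8 kb (chr1:25224239-25224904), had 5.78 and 7.98 there and no peak elsewhere. The CBFB site in D2 stiff alone (chr16:67040933-67041576) lies at the start of CES4A and had 4.67 and 6.14 there, with 3.32 for D4 soft replicate 1 and 4.73 for D4 stiff replicate 1.

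Between days, 3 of the 59 sites, all of RUNX1, were in D4 soft and not in D2 soft, against 5.79% of all sites, and 0 were in D2 soft and not in D4 soft, against 0.403%. On the stiff matrix 4 sites were in D4 alone, 2 of RUNX1 and 1 each of RUNX2 and RUNX3, against 5.35%, and 0 for D2 alone, against 1.41%. The D4 soft sites were those at 303.6 and 22.25 kb and one more, just upstream of RUNX1 P1 (chr21:36423640-36424027). Those on the stiff matrix included the RUNX2 site at 126.1 kb, the RUNX3 site at 66.8 kb and, in RUNX1, the site at 113.3 kb and one at 62.4 kb (chr21:36358932-36359555) with 5.11 and 3.75 for D4 stiff and 3.51 for D2 soft replicate 2. The D4 soft count was 15 of 55 without D2 soft replicate 2 (26% of all sites), 7 of 58 without D4 soft replicate 1 (10.2%) and 7 of 57 without D4 soft replicate 2 (13.6%). The D4 stiff count was 8 of 57 without D2 stiff replicate 2 (12.8%). In place of 0, the D2 soft count was 5 of 59 without D2 soft replicate 1 (5.41% of all sites) and 2 without D4 soft replicate 1 (1.65%) or 2 (0.983%). The D2 stiff count was 4 and 2 of 54 without D4 stiff replicate 2 (4.62%) or 1 (3.33%), and 1 without D2 stiff replicate 1 (2.67%) or 2 (2.15%).

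Counting libraries rather than groups, 35 of the 59 sites had peaks in more stiff than soft libraries, 18 in equal numbers and 6 in more soft libraries. The corresponding shares of all 75501 sites were 47.5%, 45.5% and 6.98%, so the lean to the stiff lists was general. All 7 RUNX3 sites and 9 of 12 CBFB sites had more stiff libraries, 16 of 29 RUNX1 sites did and 2 had more soft ones, and the 11 RUNX2 sites were split into 3, 5 and 3. A site missing from D2 soft replicate 1 alone, the shortest list, counts here as having more stiff libraries. That list had a peak at 7 of 29 RUNX1, 7 of 11 RUNX2, 0 of 7 RUNX3 and 3 of 12 CBFB sites, against 38.3% of all sites. A peak in all 8 libraries was found at 12 of the 59 sites, against 32.1% of all sites, and of these 6 were of RUNX1, 4 of RUNX2 and 2 of CBFB.

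At the 24246 sites with a peak in all 8 libraries, the rank of the fold enrichment within each library, turned into a normal score, was compared between groups with limma. None of the 12 member sites passed an adjusted p of 0.05 in any contrast. For stiff against soft the genome-wide share that passed was 0.00412% on day 2 and 0.00825% on day 4, and it was 0% for the difference between days in the response to stiffness and for day 4 against day 2 on either matrix. Without D2 soft replicate 2, 297 of 24632 sites passed for stiff against soft on day 2, 6 on day 4 and 224 for day 4 against day 2 on the soft matrix, and still no member site did. At an unadjusted p under 0.05 there were 2 of 12 member sites for stiff against soft on day 2, where 7.65% of all shared sites were, and 3 on day 4, where 5.35% were. There was 1 for the difference between days (5.27% of all sites), and there were 0 for day 4 against day 2 on the soft (7.07%) and the stiff matrix (5.04%). The median difference over the 12 sites, stiff minus soft, was -0.07 on day 2 and -0.14 on day 4, against -0.02 on both days over all shared sites. The day 2 median changed sign with the setting: it was 0.05 with ranks of −log10 p, 0.16 with lists of equal length, 0.06 without D2 stiff replicate 2, -0.14 without D2 soft replicate 1 and -0.28 without D2 soft replicate 2. The day 4 median was -0.34 without D4 soft replicate 2, -0.31 without D4 stiff replicate 1, -0.21 without D4 stiff replicate 2. It was -0.0055 over 22 member sites when D2 soft replicate 1 was left out.

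The lowest p for stiff against soft belonged on both days to the RUNX2 site at 262.1 kb. Its percentile among the shared sites was 96.2 and 93.8 for D2 soft, 33.4 and 70.5 for D2 stiff, 90.8 and 88.5 for D4 soft and 48.8 and 51.8 for D4 stiff. All 4 soft libraries lay above all 4 stiff libraries. The rank score differed, stiff minus soft, by -1.60 ± 0.49 (SE) on day 2 (limma, unadjusted p of 0.00265 and adjusted p of 0.48) and by -1.26 ± 0.49 on day 4 (unadjusted p of 0.0151 and adjusted p of 0.921). Among the shared sites the RUNX2 P2 site (chr6:45389223-45390970) showed the same order, with 10.7 and 11.9 for D2 soft, 3.09 and 7.51 for D2 stiff, 10.6 and 25.6 for D4 soft and 2.87 and 1.17 for D4 stiff (limma, day 4 difference -1.13 ± 0.48, unadjusted p of 0.0256 and adjusted p of 0.921). The full split at P2 did not hold in percentiles of the whole list. These were 19.0, 37.1, 39.3 and 54.2 for the soft libraries and 20.0, 32.1, 22.9 and 16.5 for the stiff ones, which overlap. Among the shared sites, every soft library lay above every stiff one at 2 of the 12 member sites, these 2 of RUNX2, against 2.12% of all shared sites. A shared site needs a peak in D2 soft replicate 1, the shortest list, and 22 member sites were shared without that library. How this requirement bears on the order was not tested. In the opposite order there was no member site, against 1.88% of all shared sites. With ranks of −log10 p the same RUNX2 sites were found and 1 RUNX1 site (chr21:36253681-36255132) had every stiff library above every soft one, against 1.96% of all sites. With lists of equal length 6 member sites were left, of which the RUNX2 site at 262.1 kb kept the order. This split was looked at after the values were seen.

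**Figure D4:**
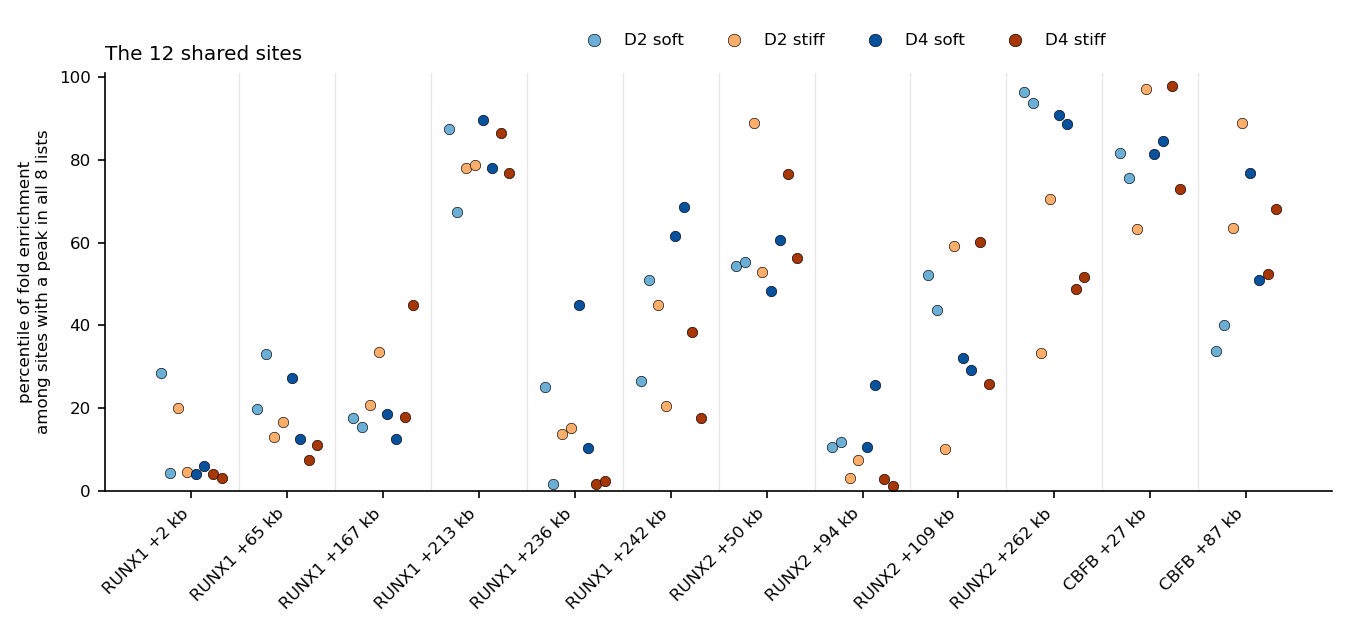
Percentile of fold enrichment among the 24246 sites with a peak in all 8 lists (vertical axis), for the 12 member sites ordered by gene and by distance from the first start in kb, with 1 circle per library coloured by group. At RUNX2 +262 kb the soft circles lie between 88.5 and 96.2 and the stiff ones between 33.4 and 70.5, and at RUNX2 +94 kb, the P2 site, between 10.6 and 25.6 and between 1.17 and 7.51.

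For the response to stiffness by day, the lowest p was at a RUNX1 intron site (chr21:36184797-36186370, 235.7 kb), where the percentile among the shared sites was 25.1 and 1.74 for D2 soft, 13.7 and 15.3 for D2 stiff, 44.9 and 10.4 for D4 soft and 1.67 and 2.402 for D4 stiff. The day 2 groups overlapped, and on day 4 both soft libraries lay above both stiff ones. The difference of -1.69 ± 0.75 (SE) in rank score had an unadjusted p of 0.0313 and an adjusted p of 0.92 (limma). It was -2.38 without D2 soft replicate 1, -0.97 without D2 soft replicate 2 and -1.13 without D4 soft replicate 1. The same site gave the lowest p for day 4 against day 2 on the stiff matrix (limma, -0.99 ± 0.53, unadjusted p of 0.0701 and adjusted p of 0.926). On the soft matrix it was the PHAF1 intron site of the CBFB window (limma, 0.71 ± 0.49, unadjusted p of 0.159 and adjusted p of 0.787), with 0.36 without D4 soft replicate 1 and 1.06 without D4 soft replicate 2.

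Among the co-regulators of RUNX proteins, 15 of 20 genes had a promoter peak in all 8 lists, 4 in some and CBFA2T3, a corepressor of blood cells, in none. For these genes and the targets below, the background is all 23414 coding starts, of which 37.7% had a peak in all 8 lists and 37.6% in none. That background counts starts, and a listed gene can have several, such as 5 for SMAD3. The co-regulators with a peak in all 8 included TLE1, TLE3 and TLE4 (Groucho corepressors that bind the RUNX C-terminus), EP300 and KAT6A (acetyltransferases), SMAD3 and SMAD4 (TGF-β effectors) and YAP1 and WWTR1, the mechanosensitive coactivators YAP and TAZ. CREBBP had a peak in 4 lists. None of the 17 shared sites at these promoters passed limma in any contrast, and at an unadjusted p under 0.05 there were 2 of them for stiff against soft on day 2, 1 on day 4, 2 for day 4 against day 2 on the soft matrix and 0 in the other contrasts, against the shares of all sites given above. Of 16 genes known as RUNX targets, 4 had a promoter peak in all 8 lists (COL1A1 of the fibrillar matrix, VEGFA, CSF2 and TIMP1), 3 in some (BGLAP, CSF1R and CDKN1A) and 9 in none, among them the bone genes SPP1, IBSP and SP7, the cartilage genes COL10A1 and MMP13 and the blood genes MPO, ITGAL, SPI1 and IL3. None of the 4 passed limma in any contrast, and 0 had an unadjusted p under 0.05.

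Over the 8 libraries, the coding promoters whose rank score ran most like that of RUNX2 P2 were those of ELOC, PRLR and FAM86B1 (Pearson r 0.977, 0.968 and 0.965), and those most like the CBFB promoter were AARS2, RABEP1 and ATP5MC2 (0.932, 0.928 and 0.916). Each was chosen as the highest of 8828 promoters with a peak in every list, over 8 libraries that share depth and list length between promoters, so these values are descriptions only.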

How the data were processed

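ATAC-seq of LX-2 cells was deposited as 1 peak list per library. Per the labels and methods, the authors trimmed adapters with TrimGalore, aligned reads to hg19 with Bowtie2 (2.4.1) and called peaks with MACS2 at q up to 0.05, replicates apart. The submitters' processing notes also list Picard and bedtools (2.24.0). How they were applied to the ATAC-seq reads, and the Tn5 shift, are not given in the sources used here. The deposited lists give fold enrichment (a ratio of the summit pile-up to local background), −log10 p-value and q-value, and a score, which was not used.

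Peaks were merged at 1 bp overlap and sites kept with peaks in at least 2 libraries. Coordinates and motifs came from GRCh37 with GENCODE 44 lifted to that build, windows from CCDS transcripts. Fold enrichment is relative to each library's own background, so tests used ranks: percentiles of the whole list, and normal scores at shared sites for limma (R 4.3.3, limma 3.58.1, group means, Benjamini-Hochberg over all sites), tested on simulated data. Other tests were exact permutations over libraries. Pile-ups recovered from the peak values gave the background depth. Depth limits which peaks are called. The text names every promoter site, the 2 best ranked sites per gene in all 8 lists and per pattern, the lowest limma p per contrast and the 3 promoters most like each promoter found in every list. Members and lists were chosen with earlier results of these data known. PECAM1, a listed endothelial marker, had no CCDS start here and was not assessed, and 1 other listed marker is not reported here.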

Additional observations from a re-analysis of the deposited data

Results flagged for a closer look

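At RUNX1 P1, the percentile of fold enrichment was 49.2 in D2 stiff replicate 1, far above the other 3 stiff libraries (25.1, 28.0 and 27.5), by a gap test that chance passes in about 1 of 20 groups of 4 libraries. Of 28 such groups checked, no other promoter, best shared site or window count stood apart in this way among the 4 soft or the 4 stiff libraries.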

How the results depend on the processing

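With lists of equal length, the difference of all 4 windows was 0 peaks per 10000, the P2 to P1 difference 4.14 points in RUNX2 and 0.923 in RUNX1, and of 25 member sites those present in one group alone numbered 2 (D2 stiff), 1 (D4 stiff), 1 (D4 soft), 1 (soft matrix, day 4), 1 (stiff matrix, day 4) and 1 (stiff matrix, day 2). The shares of all sites were 4.05%, 2.99%, 2.81%, 3.15%, 2.75% and 2.6% in that order. As a plain number the windows differed by 12.75 peaks. With a peak in at least 1 replicate these sites numbered, of 59, 15 (D2 stiff), 7 (D2 soft), 11 (D4 stiff), 2 (D4 soft), 11 and 5 (soft matrix, day 4 and day 2) and 9 and 2 (stiff matrix, day 4 and day 2). Among all sites the shares were 20.1%, 5.45%, 14%, 4.43%, 18.4%, 6.1%, 11.7% and 4.47% in that order. At q up to 0.01 the D2 soft count was 1 of 56 (0.325% of all sites). With the whole gene record as window, which held 115 sites, the D4 stiff count was 11 (9.57%, against 6.72% of all sites), the D4 soft count 1 (against 1.31%), the soft matrix counts 5 (day 4, against 5.79%) and 1 (day 2, against 0.403%), and the windows differed by 0.1455 peaks per 10000. Where a peak had to cover at least 0.5 of its site, a choice made after the data were seen, 49 sites were left. Between matrices the counts were 5 (D2 stiff, 6.77% of all sites), 0 (D2 soft, 1.09%), 7 (D4 stiff, 11.7%) and 1 (D4 soft, 1.39%). Between days they were 5 (soft matrix, day 4, 7.05%), 9 (stiff matrix, day 4, 12%) and 1 (stiff matrix, day 2, 1.3%). The cause was not tested.

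Leaving out 1 library at a time gave 0.268 to 0.825 for the windows, 5.62 to 12.1 for RUNX1 P2 minus P1 and 26.7 to 32.1 for RUNX2. The counts ran from 6 to 21 (D2 stiff), 2 to 7 (D2 soft), 4 to 11 (D4 stiff), 0 to 4 (D4 soft), 3 to 15 and 0 to 5 (soft matrix, day 4 and day 2) and 4 to 8 and 0 to 4 (stiff matrix, day 4 and day 2). At the highest of these counts the shares of all sites were 29.7%, 4.7%, 15.6%, 3.83%, 26%, 5.41%, 12.8% and 4.62% in that order. The 5 limma contrasts gave 0 member sites under every alternative run.

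The peak names inside 5 lists carry another number than the title, and the pairing was checked by the titles. Replicate numbers were not shown to pair the libraries: deviations of replicates 1 correlated between groups at 0.0722, -0.0107, -0.0347 and -0.00121. With the replicate block the windows still differed by 0.556 (exact p = 0.278) and limma called 0 member sites. The planned rule of covering at least 0.5 of the shorter of peak and site changes nothing by construction, since a peak lies inside its merged site. Taking only libraries with both promoters left none for RUNX2, and no alternative gave RUNX3 a value. The shortest list limits what the absence of a peak can show.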
